A study of Mus musculus with 6 samples.

Results

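The circadian clock genes described here are Per1, Per2, Per3, Cry1, Cry2, Arntl, Clock, Nr1d1, Nr1d2 and Dbp, 10 genes chosen by name out of 37620 gene identifiers counted. Their RNA was measured by sequencing total RNA of the hippocampus in 3 mice labelled miR17-92 knockout and 3 wildtype mice. All 6 were C57BL/6 mice aged 13 weeks, and no litter gave more than 1 of them. The miR-17-92 cluster is a group of microRNAs cut from 1 host transcript. The allele, the cells in which the cluster was removed and the hour at which the mice were dissected are not given in the labels. The question put to these genes was whether the genotypes, or single mice, differ in clock phase. In whole tissue, fewer cells of a type and less RNA per cell cannot be told apart.

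The circadian clock is a loop of transcription found in nearly every cell. CLOCK and ARNTL (also called BMAL1) bind E-boxes and switch on the Per and Cry genes, whose proteins later block CLOCK and ARNTL. In a second loop NR1D1 and NR1D2 (REV-ERB alpha and beta) repress Arntl through ROR elements, and DBP drives other genes through D-boxes. In tissues of the nocturnal mouse Nr1d1, Nr1d2, Dbp and the Per genes peak in the light phase or around dusk, whereas Arntl, Clock and Cry1 peak in the late night or around dawn. Cry2 has a weak rhythm. Mice killed at phases far apart could therefore differ in opposite directions in the day genes and the night genes. The day genes peak over a range of hours, so they need not all move together between phases. In the hippocampus the clock is known to bear on memory and on the daily course of neuronal excitability.

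Letters that match the elements of this loop stand in the promoters of 4 of the genes and are shown for that reason. RefSeq promoter windows (GRCm38.p6, 250 bases before to 50 after each start) were found for 9 of the 10 genes, all but Per2. Both strands were searched for the E-box CACGTG, the D-box TTANGTAA, the ROR element by its consensus, the cAMP response element TGACGTCA a heat shock element, GAANNTTC, and the TATA box TATAAA. Matches are in capitals, sequences run 5′ to 3′ along the gene, and these motifs do not overlap each other in the windows.
Per1, E-box at position -166 from the start, chr11:69098761-69098810, plus strand: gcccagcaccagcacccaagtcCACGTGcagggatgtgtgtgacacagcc
Cry1, E-box at position -60, chr10:85185087-85185136, minus strand: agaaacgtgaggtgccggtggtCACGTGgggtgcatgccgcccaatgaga
Per3, D-boxes at positions -205 and -158, chr4:151044794-151044892, minus strand: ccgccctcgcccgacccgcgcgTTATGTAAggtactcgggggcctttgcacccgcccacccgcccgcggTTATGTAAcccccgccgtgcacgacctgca
Arntl, ROR element at position 26 after 1 of its starts, chr7:113207515-113207560, plus strand: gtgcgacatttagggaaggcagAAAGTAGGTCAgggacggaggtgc
Of all 32851 RefSeq promoter windows searched, 7.15% hold the E-box, 2.32% the D-box, 0.384% the ROR element, 1.79% the cAMP response element, 7.86% the heat shock element and 13.6% the TATA box. A match is a description of these letters and not a bound site, and the same E-box was found in Per1, a day gene, and Cry1, a night gene. The other members had no match in their windows, and the cAMP response element, the heat shock element and the TATA box were matched in none of the 9.

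Gene reads came to between 26439693 and 57246827 per library, the deepest being knockout replicate 3. The cluster host transcript Mir17hg held 30, 35 and 37 reads in knockout and 43, 47 and 36 in wildtype, too few and too alike to check the labels. Its log2 fold was -0.22 (SE 0.28, edgeR adjusted p = 0.813). The labelled tissue was borne out by its markers. Prox1 of dentate granule cells lay at 167 to 189 CPM (reads of a gene scaled to a common library total, here with TMM factors) and Fibcd1 of CA1 pyramidal cells at 165 to 203 CPM, while the pyramidal marker Pou3f1 was listed at 0 in every library. All 10 clock genes passed the filter on low counts, with 311 to 9074 reads per gene and library. Counting error alone then gives an SD of 0.015 to 0.082 on the log2 scale. Reads were not marked by molecule, so these figures cover counting error only.

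No clock gene differed between knockout and wildtype hippocampus past the threshold, and 9 of the 10 had log2 folds between -0.04 and 0.06. With edgeR's quasi-likelihood test 0 of the 10 had an adjusted p under 0.05, where 0.0% of the 16432 genes tested did, and the members' adjusted p lay between 0.358 and 0.967. DESeq2, which called 0.649% of its 25440 genes, edgeR's robust fit, which called 0.0913%, and limma-voom, which called 0.0%, also called 0 of the 10. At an unadjusted p under 0.05 there was 1 member, Per2, which was higher in knockout, against 10.6% of all genes in either direction and 5.05% higher in knockout. In 0 of the 10 did the genotypes stand apart without overlap, against 16.6% of all genes tested. The median log2 fold of the members was 0.03, and that of all genes tested was 0.00. The 95% intervals of the folds left out a change of 1.5-fold in either direction for all 10 genes.

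**Figure D1:**
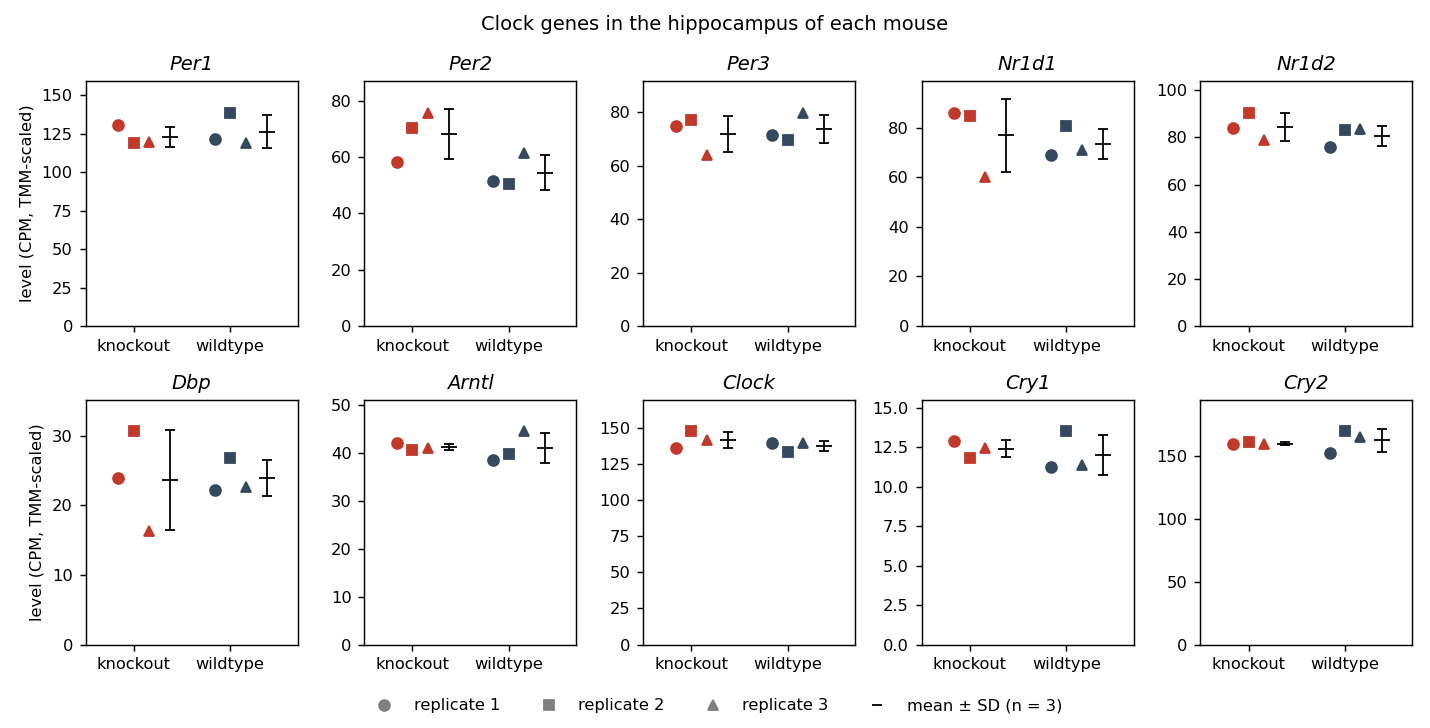
Level of each clock gene in each mouse, in TMM-scaled CPM on axes that start at 0, with knockout left of wildtype. Symbols are mice and the black bars give the mean ± SD (n = 3). The genotypes overlap in every panel, and Per2 has the largest shift, 68.0 CPM in knockout and 54.4 CPM in wildtype.

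Among the Period genes, which encode the repressors that give the loop its delay, Per2 had the largest difference. Per2 measured 58.2, 70.2 and 75.6 CPM in knockout replicates 1, 2 and 3, against 51.3, 50.4 and 61.5 CPM in wildtype replicates 1, 2 and 3. Knockout replicate 1 lay below wildtype replicate 3, so the groups overlapped. The mean was 68.0 ± 8.9 CPM in knockout and 54.4 ± 6.2 CPM in wildtype (SD, n = 3 each), a log2 fold of 0.33 (SE 0.11, 95% interval 0.09 to 0.57). This did not pass (edgeR adjusted p = 0.358), nor did it with DESeq2 (adjusted p = 0.0839). Without knockout replicate 3 the log2 fold was 0.24, and without knockout replicate 1 it was 0.43.

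Per1, the Period gene that glucocorticoids and neuronal activity also induce within a short time, was level between the genotypes. It measured 130.5, 118.7 and 119.7 CPM in knockout and 121.4, 138.5 and 118.9 CPM in wildtype. The highest mice were wildtype replicate 2 and knockout replicate 1, 1 of each genotype. The log2 fold of -0.04 (SE 0.07) had a 95% interval of -0.19 to 0.11. Per3, whose promoter holds the pair of D-boxes shown above, measured 74.7, 76.9 and 64.1 CPM in knockout and 71.6, 69.7 and 79.7 CPM in wildtype. Knockout replicate 3 was lowest and wildtype replicate 3 highest. Its log2 fold of -0.04 (SE 0.08) turned to 0.04 without knockout replicate 3 and to 0.02 without wildtype replicate 3.

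Dbp varied most between mice among the 10 genes. Dbp, a transcription factor that carries the rhythm to other genes, measured 24.0, 30.6 and 16.4 CPM in knockout and 22.2, 26.9 and 22.7 CPM in wildtype. The lowest and the highest mouse were both knockouts, 1.87-fold apart, and the 3 wildtype mice lay between them. The genotype means were 23.7 ± 7.1 CPM in knockout and 23.9 ± 2.6 CPM in wildtype (SD, n = 3 each), a log2 fold of -0.03 (SE 0.19, 95% interval -0.47 to 0.41). That fold was 0.19 without knockout replicate 3, -0.25 without knockout replicate 2 and 0.06 without wildtype replicate 2. Its exons share 18.0% of their bases with Sphk2 on the other strand in GENCODE M21, and Sphk2 held 7188 reads over the 6 libraries. Since the strand setting of the counting is not given, reads in the shared bases cannot be assigned with certainty.

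Nr1d1, the repressor of Arntl, measured 85.9, 84.7 and 60.0 CPM in knockout and 68.9, 80.5 and 71.0 CPM in wildtype. Again knockout replicate 3 was lowest, and the other 2 knockout mice were the highest of all. Its log2 fold was 0.06 (SE 0.13), or 0.21 without knockout replicate 3, where the edgeR adjusted p was 0.467. It was -0.03 without knockout replicate 1 and -0.01 without knockout replicate 2. Nr1d1 shares 8.55% of its exon bases with Thra, which lies on the opposite strand and held 203855 reads over the 6 libraries. Its paralog Nr1d2 measured 83.9, 90.3 and 78.7 CPM in knockout and 75.8, 83.0 and 83.4 CPM in wildtype. The genotypes overlapped throughout, with a log2 fold of 0.06 (SE 0.06).

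The activators and the night genes had small folds. Arntl, the partner of CLOCK, measured 42.0, 40.6 and 40.9 CPM in knockout and 38.5, 39.7 and 44.4 CPM in wildtype, so that the knockout mice lay inside the wildtype range. Its log2 fold was 0.01 (SE 0.06), and it was slightly negative without wildtype replicate 1 (-0.03), wildtype replicate 2 (-0.01) or knockout replicate 1. Clock, which encodes the other activator, measured 136.4, 147.5 and 141.5 CPM in knockout and 139.5, 133.2 and 139.7 CPM in wildtype, a log2 fold of 0.04 (SE 0.05, 95% interval -0.06 to 0.15). The 6 mice differed by at most 1.11-fold in Clock.

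The Cryptochromes, partners of the PER proteins in repression, were alike between the genotypes within these errors. Cry1 measured 12.9, 11.8 and 12.5 CPM in knockout and 11.2, 13.5 and 11.4 CPM in wildtype, a log2 fold of 0.04 (SE 0.09) that was -0.01 without wildtype replicate 1. Cry2 measured 159.1, 160.8 and 159.1 CPM in knockout and 152.4, 169.4 and 165.1 CPM in wildtype. The 3 knockout mice were almost level in Cry2 and lay inside the wildtype range. Its log2 fold of -0.02 (SE 0.05) turned to 0.01 without wildtype replicate 2.

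**Figure D2:**
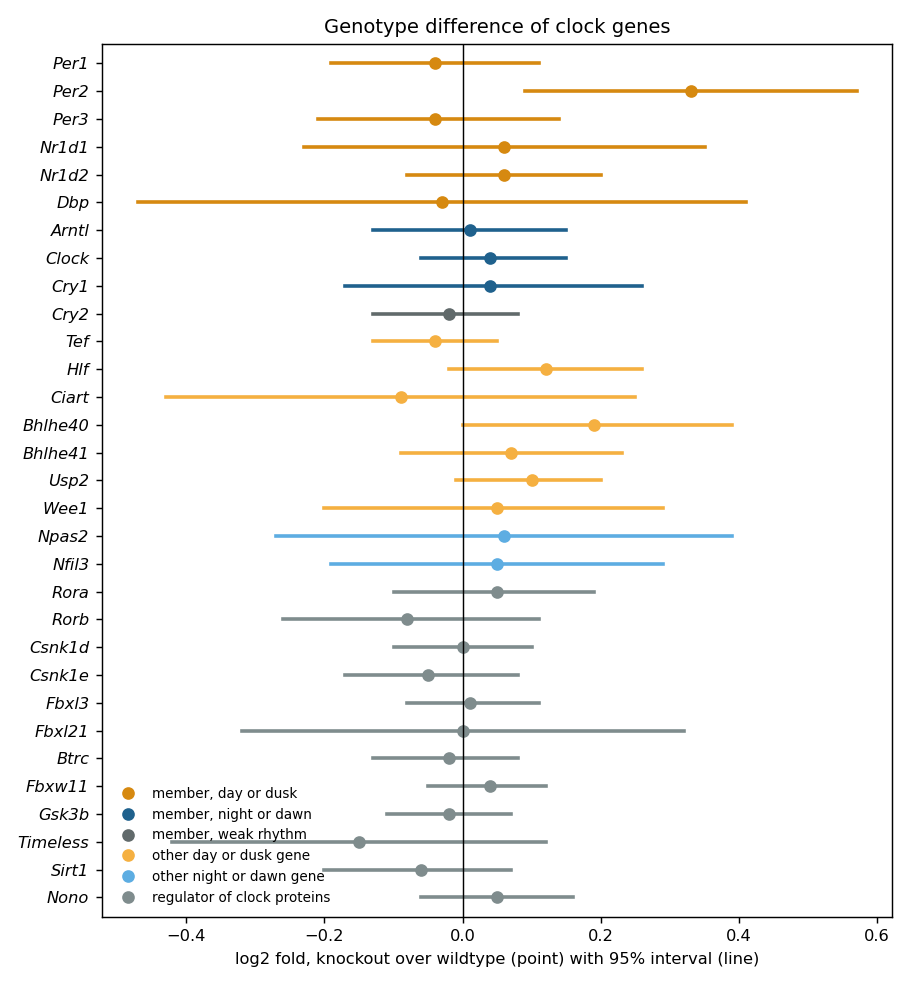
Log2 fold, knockout over wildtype, of the 10 clock genes and 21 further clock genes from edgeR (points) with 95% intervals (lines). Colours mark the side of the rhythm or the role, and a positive value is higher in knockout. Per2 is the 1 gene whose interval lies wholly to 1 side of 0, at 0.09 to 0.57.

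An index of day genes minus night genes had nearly the same mean in both genotypes. For each mouse the mean log2 CPM of Arntl, Clock and Cry1 was taken from that of Per1, Per2, Per3, Nr1d1, Nr1d2 and Dbp. A higher score means more RNA of the day genes relative to the night genes. Day genes that move in opposite directions cancel in it, so a like mean does not show a like phase. The index was 0.69, 0.82 and 0.52 in knockout replicates 1, 2 and 3, against 0.64, 0.68 and 0.66 in wildtype replicates 1, 2 and 3. The knockout mice lay on both sides of the wildtype mice. Knockout mice averaged 0.68 ± 0.15 and wildtype mice 0.66 ± 0.02 (SD, n = 3 each), a difference of 0.02 that is smaller than the spread between mice. Because the index is a score over chosen genes it was given no p. Without Per1 the difference was 0.03, without Cry1 it was 0.02, and with 7 further day genes and 2 further night genes it was 0.01. It was -0.04 without Per2, a choice made after the values were seen, -0.05 without knockout replicate 2 and 0.10 without knockout replicate 3.

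The ratio of Dbp to Arntl, which compares an output with an activator of opposite phase, told the same of the mice. In CPM it was 0.572, 0.754 and 0.400 in knockout and 0.576, 0.677 and 0.511 in wildtype. Knockout mice were the highest and the lowest of the 6. For Nr1d1 to Arntl the ratio was 2.05, 2.09 and 1.47 in knockout and 1.79, 2.03 and 1.60 in wildtype, with the same mouse lowest. For Per2 to Arntl it was 1.39, 1.73 and 1.85 in knockout and 1.33, 1.27 and 1.39 in wildtype, and there knockout replicate 3 was highest.

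In knockout replicate 3 Per2 deviated upward while the other day genes deviated downward. The mouse was the lowest of the 6 mice in Dbp, Nr1d1 and Per3, at -0.51, -0.31 and -0.18 from the mean of the 6 mice on the log2 scale, and the highest in Per2, at 0.32. Per1 and Nr1d2 lay at -0.06 and -0.07, so Per2 was the only day gene above the mean in this mouse. The index of this mouse, 0.52, was the lowest of the 6, and without Per2 it was 0.45. In the night genes the same mouse lay at 0.03 in Cry1, 0.02 in Clock and within 0.01 of the mean in Arntl. Taking Per2 from the mean of Dbp, Nr1d1 and Per3, a contrast chosen after these values were seen, gave -0.12, -0.26 and -0.93 in knockout and -0.10, 0.08 and -0.29 in wildtype. Knockout replicate 2 deviated the other way in Dbp, at 0.39, and in Nr1d1, at 0.18, but like replicate 3 was high in Per2, at 0.21.

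**Figure D3:**
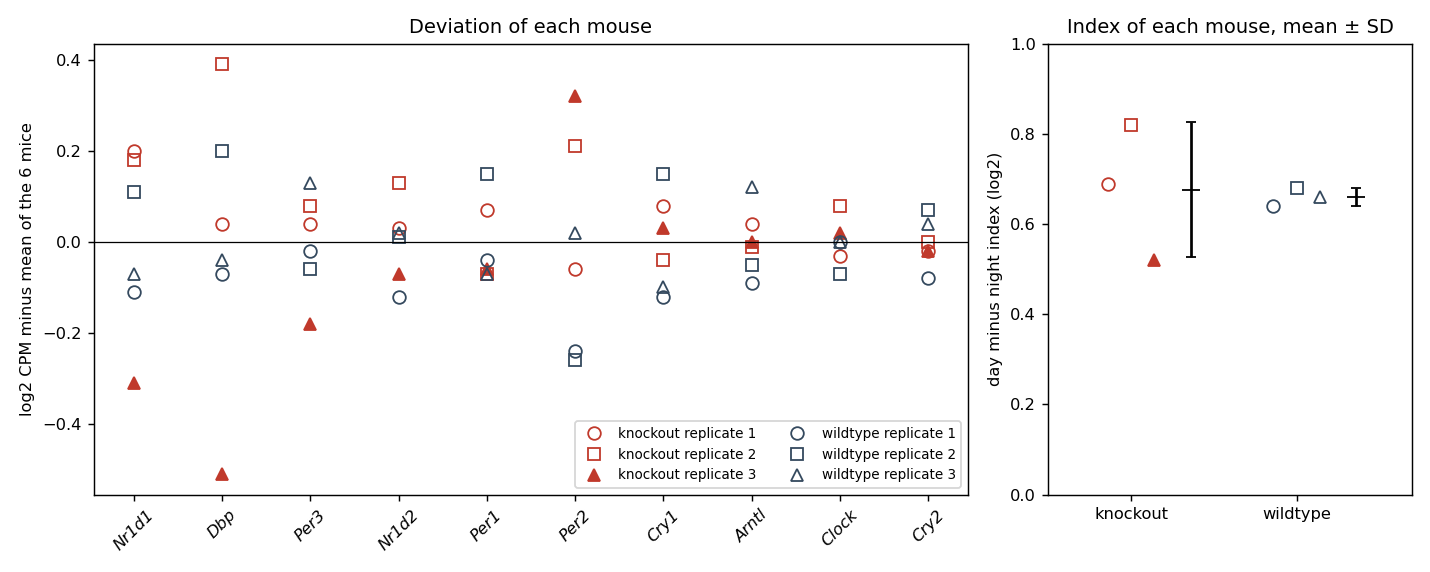
Left, log2 CPM of each clock gene in each mouse minus the mean of the 6 mice, with knockout replicate 3 as filled triangles. Right, the day minus night index of each mouse with the mean ± SD (n = 3), knockout left of wildtype. Knockout replicate 3 is lowest in Nr1d1, Dbp and Per3, highest in Per2, and lowest in the index, at 0.52.

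Levels of genes that answer to temperature are given beside this mouse because body temperature follows the day and Per2 is known to be induced by heat shock factor in mouse cells. Of 7 heat shock genes 6 were highest in knockout replicate 3, all but Hspa8. Hsph1, a chaperone, measured 365.9, 388.3 and 578.6 CPM in knockout and 401.7, 364.7 and 446.5 CPM in wildtype. Cirbp, a cold-inducible gene, measured 46.7, 38.9 and 27.7 CPM in knockout and 36.7, 52.5 and 33.8 CPM in wildtype, and was lowest in knockout replicate 3. The other cold-inducible gene, Rbm3, was nearly level, at 32.3, 34.3 and 31.8 CPM in knockout and 35.0, 33.8 and 32.1 CPM in wildtype. Cirbp is named outside the naming rule, after its values were seen. The summed level of the 9 genes was 716 to 1028 CPM of the gene total in knockout and 829 to 869 in wildtype, and the list's median log2 fold was -0.02. The part of temperature, and of the greater depth of this library, in the pattern of knockout replicate 3 was not tested.

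The spread between mice differed from gene to gene. The SD of log2 CPM within genotypes was 0.34 in Dbp, 0.22 in Nr1d1 and 0.18 in Per2, against a median of 0.079 over the 11462 tested genes of at least 5 CPM. Dbp, Nr1d1 and Per2 stood higher than 98.5%, 95.1% and 90.6% of those genes in this SD. Clock, Cry2 and Arntl were below the median, at 0.049, 0.057 and 0.078.

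The order of the levels was set out per kilobase of exon, using GENCODE M21 exon lengths. Cry2, Nr1d1 and Per1 led, at medians over the 6 mice of 25.3, 24.6 and 21.5 CPM per kilobase, and neighbours among these 3 overlapped between mice. Nr1d2 came next at 15.4 and was separate from Per1 above and Per2 below. Per2, Clock, Dbp and Per3 followed at 10.2, 10.2, 7.80 and 7.62, each overlapping its neighbour. Arntl at 5.42 and Cry1 at 3.63 were lowest and did not overlap the gene above them.

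Further genes driven by the clock were taken from fixed lists. Of 7 other day or dusk genes 5 had positive and 2 negative folds, the median log2 fold was 0.07, and 0 passed with edgeR, with 0 at an unadjusted p under 0.05 either. Tef and Hlf, which bind D-boxes as DBP does, had log2 folds of -0.04 (SE 0.04) and 0.12 (SE 0.06). Bhlhe40, a repressor that competes at E-boxes, measured 147.7, 161.1 and 139.0 CPM in knockout and 114.7, 144.7 and 131.9 CPM in wildtype. Wildtype replicate 1 was the lowest mouse there, and the log2 fold of 0.19 (SE 0.09) was 0.11 without it and 0.27 without wildtype replicate 2. The edgeR adjusted p was 0.471, and over the alternatives the adjusted p lay between 0.329 and 0.837. Its relative Bhlhe41 had a log2 fold of 0.07 (SE 0.07), and Ciart, another repressor of CLOCK and ARNTL, one of -0.09 (SE 0.15) that was near 0 without wildtype replicate 3. Usp2, a ubiquitin protease, was the 1 gene of the 7 whose groups did not overlap, against 16.6% of all genes tested. It measured 60.6, 60.1 and 62.8 CPM in knockout against 55.1, 58.0 and 58.7 CPM in wildtype (log2 fold 0.10, SE 0.05, edgeR adjusted p = 0.512).

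In wildtype replicate 1, 6 of these 7 day genes were at their lowest of the 6 mice, all but Tef. Of the 10 members Nr1d2, Arntl, Cry1 and Cry2 were lowest in it too. The members lowest in this mouse thus came from both sides of the rhythm, and its index of 0.64 was close to the wildtype mean. This library also held the most Ttr, a transcript of the choroid plexus, at 39.0 CPM against 1.56 to 5.73 CPM in the knockout libraries and 4.87 and 2.48 CPM in the other wildtype libraries. Of the other choroid plexus markers only Folr1 was also highest in wildtype replicate 1. It lay at 0.474 CPM there and at 0.314 to 0.389 CPM in the other mice, on 9 to 22 reads per library. Kl and Clic6 were highest in knockout replicate 2 and Prlr in wildtype replicate 2, and Kcnj13 held 6 to 17 reads. The part of Ttr-bearing tissue in these levels was not tested.

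The 2 other night genes did not pass either. Npas2, which can replace CLOCK in the forebrain, measured 29.9, 23.5 and 24.3 CPM in knockout and 20.9, 30.6 and 22.8 CPM in wildtype. Knockout replicate 1 and wildtype replicate 2 were high and the others low, and the log2 fold of 0.06 (SE 0.15) was -0.05 without knockout replicate 1 or without wildtype replicate 1 and 0.25 without wildtype replicate 2. Nfil3, the repressor at D-boxes, had a log2 fold of 0.05 (SE 0.10), -0.05 without knockout replicate 3 and 0.13 without wildtype replicate 3.

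Of 12 regulators of the clock proteins 5 had positive and 7 negative folds, with a median log2 fold of -0.01, and 0 were called by edgeR, with 0 at an unadjusted p under 0.05. Casein kinases Csnk1d and Csnk1e, which phosphorylate the PER proteins and set the period, lay at 180 to 190 and 81 to 84 CPM in knockout and at 178 to 189 and 79 to 91 CPM in wildtype. Rora, an activator of Arntl, had a log2 fold of 0.05 (SE 0.06), or -0.02 without knockout replicate 3. Timeless, a partner of the clock proteins, had a log2 fold of -0.15 (SE 0.12).

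Genes known to answer to signals that also induce Per1 were counted beside it. Of 12 genes induced by glucocorticoids 11 had positive folds, with a median log2 fold of 0.25, and 8 had an unadjusted p under 0.05 and were higher in knockout, against 5.05% of all genes. Of 12 immediate early genes, which neurons switch on when they fire, 12 had negative folds, with a median log2 fold of -0.54 and 11 at an unadjusted p under 0.05 and lower in knockout, against 5.58% of all genes. Their summed level was 796 to 804 CPM of the gene total in knockout and 1007 to 1202 in wildtype. With edgeR 0 of either list passed over all genes tested. These shifts were known from earlier results of these data, and the log2 fold of Per1 beside them was -0.04.

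Marker lists of other cell types are given beside the fold of Per2, and with edgeR 0 of their genes passed over all genes tested. Of 7 meningeal markers 7 had positive folds with a median of 0.36 on the log2 scale, and their summed level was 303 to 415 CPM of the gene total in knockout and 237 to 277 in wildtype. Of 10 astrocyte markers 9 had positive folds, with a median of 0.09 and sums of 6022 to 6515 in knockout and 5586 to 6260 in wildtype. Of 6 dentate granule cell markers 5 had positive folds, with a median of 0.13 and sums of 529 to 574 in knockout and 461 to 505 in wildtype. Of 6 CA pyramidal cell markers 5 were tested, and 1 had a positive and 4 a negative fold. Their median was -0.06, with sums of 670 to 708 in knockout and 724 to 760 in wildtype. Medians were -0.15 for 7 oligodendrocyte, -0.08 for 6 microglial, -0.11 for 5 endothelial and 0.06 for 6 interneuron markers. For 6 thalamic and 5 tested choroid plexus markers they were -0.04 and -0.13. Of these markers only Pou3f1, on the CA pyramidal list, was at 0 reads in every library. The part of these cell types in the level of Per2 was not tested.

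The cluster's microRNAs can bind messengers whose 3′ UTR holds the complement of their seed, bases 2 to 8, and so the seeds are shown with the sites they match in clock genes. The mature sequences are from RefSeq (GRCm38.p6, chromosome 14, plus strand), with the seed in capitals. Those of miR-17 and miR-20a share 1 seed, and so do those of miR-19a and miR-19b.
miR-17-5p: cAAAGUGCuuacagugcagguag
miR-20a-5p: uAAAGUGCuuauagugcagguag
miR-18a-5p: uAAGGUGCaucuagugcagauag
miR-19a-3p: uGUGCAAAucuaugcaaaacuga
miR-19b-3p: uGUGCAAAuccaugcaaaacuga
miR-92a-3p: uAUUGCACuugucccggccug

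Of the 10 clock genes 4 held such a 7-base site in their longest annotated 3′ UTR (GENCODE M21), Clock, Cry2, Per1 and Per2, against 33.3% of 14518 tested genes with a 3′ UTR. Clock held 6, of which 4 match miR-17 and miR-20a and 2 match miR-19, in a 3′ UTR of 6831 bases where the median of all tested genes is 1192. Cry2 held 1 for miR-17 and miR-20a and 1 for miR-92a, Per1 had 1 for miR-19 and Per2 had 1 for miR-92a. The site is in capitals in the sequences below, which run 5′ to 3′ along the messenger, for the first miR-17 site of Clock and for those of the other genes.
Clock, miR-17 and miR-20a: cacaaaacattttagGCACTTTtttaacat
Cry2, miR-17 and miR-20a: ggttgcaggcaagaaGCACTTTacagagtt
Cry2, miR-92a: taccatggccacagaGTGCAATctgcagag
Per1, miR-19: ccagtgtgcctctgtTTTGCACaccccagc
Per2, miR-92a: acgtaccttcacccaGTGCAATatatttgt

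Log2 folds of these genes, knockout over wildtype, were 0.04 for Clock with 6 sites, -0.02 for Cry2 with 2 and -0.04 for Per1 and 0.33 for Per2 with 1 each. The folds did not order by the number of sites. Over all tested genes with a 3′ UTR the median log2 fold was 0.012 with a site of any of the 4 seeds and -0.005 without one. A seed match is a description of the letters, and binding was not measured.

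The genes nearest to Dbp and Arntl in pattern over the 6 mice were listed, by the root mean square difference of log2 deviations among 11461 other genes of at least 5 CPM. For Dbp, whose own deviations had a root mean square of 0.28, they were Pdzrn3 and Slc35b2 at 0.12, Hk2 at 0.13, and Pcdhb13 and Pnpla3 at 0.14. Nr1d1 followed at rank 6, also at 0.14, and Per3 and Nr1d2 at ranks 475 and 477, while Per2 was at rank 11051. For Arntl, whose deviations were small at 0.064, they were Nucb2 at 0.0073, Sept11 at 0.020, Hivep1 at 0.021, and Cntn1 and Rbm5 at 0.022. Among the members Cry2 came closest to Arntl, at rank 1184, and Clock was at rank 2633.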

How the data were processed

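The authors deposited raw read counts per Ensembl gene, 1 table per mouse. The tools named are STAR 2.3.0e, HTSeq, SAMtools, DESeq2 and FastQC 0.10.1, with build mm9, per the submitters' processing notes. Neither annotation nor strand setting is given in the sources used here. The 5 rows that name no gene held 38.0% to 40.3% of each table and were left out. Names matched 32897 of 37620 identifiers, and 140 of 140 list entries. A further clock regulator is not reported here.

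Knockout was tested against wildtype over all genes in R 4.3.3, where edgeR 4.0.16 ran its quasi-likelihood test with genotype as the 1 term. Low counts were removed with filterByExpr, libraries were scaled by TMM, and p-values were adjusted by Benjamini-Hochberg with a threshold of 0.05. Intervals are the log2 fold ± the t quantile times its SE, taken from the F statistic. Log2 CPM used a prior count of 2. DESeq2 1.42.0 and limma 3.58.1 (voom) were alternatives. Scripts were tested on simulated data. P-values set the genotype difference against the spread between these mice, with each gene's variance estimated in part from the other genes.

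Members and lists were chosen with earlier results of these data known. Named were the 10 members, genes of the clock lists, Mir17hg, up to 3 genes of smallest p per other list, and the 5 nearest to Dbp and to Arntl in pattern. Genes outside this rule (Cirbp, Rbm3, Folr1, Clic6, Kcnj13, Fibcd1 and Pou3f1) were chosen after their values were seen. Hsph1, Prox1, Ttr, Kl and Prlr are inside the rule but were also chosen after their values were seen. Sequences and exon lengths are from GRCm38, so no mm9 coordinates are printed.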

Additional observations from a re-analysis of the deposited data

How the results depend on the processing

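The number of clock genes called was 0 under all 15 alternatives, among them upper quartile factors, DESeq2 size factors, no filter, a filter of 1 CPM in 3 libraries, edgeR's robust fit, limma-voom, the gene total as a covariate, and leaving out each library (0 to 0). At an unadjusted p under 0.05 the 1 member was Per2 in each of them, except without knockout replicate 3, where it was Nr1d1. Over all genes the count called, 0 in the main test, was 62 with no filter beyond 1 read, 165 with DESeq2, 15 with the robust fit and 0 to 17 without 1 library. The cause was not tested. With the replicate number as a block 0 genes and 0 clock genes were called. With that block the log2 fold of Per2 was 0.32 (edgeR unadjusted p = 0.00233, adjusted p = 0.376). The numbers are not known to pair mice, which came from different litters. Correlations across genes between same-numbered mice were -0.10, -0.02 and -0.15, and each knockout library was closer to a wildtype library with another number. The difference in the day minus night index, 0.02, was -0.05 to 0.10 without 1 library and -0.33 for Dbp, Nr1d1 and Per3 minus Per2, which was chosen after the data were seen, as was the index without Per2 (-0.04).

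Of 330 folds of 22 clock genes under an alternative 309 kept their direction, and 21 turned, in 13 genes whose log2 fold was at most 0.09 in size. With every library kept only Csnk1d turned, to -0.0015 with upper quartile factors. Without 1 library, log2 folds ranged from -0.08 to 0.03 in Per1, -0.09 to 0.04 in Per3, -0.03 to 0.21 in Nr1d1, -0.25 to 0.19 in Dbp, -0.03 to 0.07 in Arntl, -0.01 to 0.13 in Cry1, -0.07 to 0.01 in Cry2, -0.22 to 0.0017 in Ciart, -0.05 to 0.25 in Npas2, -0.05 to 0.13 in Nfil3, -0.02 to 0.09 in Rora, -0.02 to 0.03 in Csnk1d and -0.10 to 0.0042 in Csnk1e. The printed intervals give the sizes of difference that 3 mice a group leave possible.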
